A study of Mus musculus with 2 samples.

Results

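Klf2, S1pr1 and 6 further genes of T cell recirculation were described in single CD4+ CD25+ T cells of mouse lymph node and spleen. The 8 genes are 5 Krüppel-like transcription factors (Klf2, Klf3, Klf6, Klf7, Klf13), 2 receptors for sphingosine 1-phosphate (S1pr1, S1pr4) and the chemokine receptor Ccr7. They were taken by symbol from the deposited gene table, where they are 8 of 31056 features, and all 8 were found. Both libraries came from healthy female mice with floxed Myc on both chromosomes and Cre on 1 Foxp3 allele (Mycfl/flFoxp3Cre/WT). Because Foxp3 is X-linked, each cell of such a female uses either its Cre allele or its wild-type allele, so regulatory T (Treg) cells without and with Myc live side by side. YFP-positive and YFP-negative cells were sorted and run together in 1 10x lane per tissue, in a ratio that the labels do not state. There are 2 libraries, 1 per tissue, with no replicate. The number of animals is not stated, and no library came from Cre-bearing mice with unfloxed Myc, so an effect of Cre itself and of Myc loss cannot be told apart.

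Naive and resting T cells travel between blood and lymphoid organs. Ccr7 draws them into lymph nodes and into the T cell zones of the spleen, and S1pr1 lets them leave again along a gradient of sphingosine 1-phosphate that is high in blood and lymph. Klf2 is a zinc-finger factor kept on in quiescent T cells by Foxo1. It activates S1pr1 and other homing genes, and it is shut off when the T cell receptor or the PI3K pathway is active. In Treg cells, central cells keep this programme while effector cells, many of which carry Klrg1 or Cxcr3, turn to non-lymphoid tissues. Klf3 is a repressor that competes for the same CACCC-type boxes, Klf6 is an early-response activator, Klf13 is known as a late regulator of Ccl5, Klf7 is best known from neurons, and S1pr4 is a second sphingosine 1-phosphate receptor of haematopoietic cells.

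The 8 genes lie on 8 chromosomes of GRCm38 (positions from GENCODE M21), all as protein-coding genes. Klf2 spans chr8:72319033-72321656, Klf3 chr5:64803388-64832901 and Klf6 chr13:5861482-5870394, all on the plus strand. On the minus strand lie Klf7 at chr1:64029447-64122282, Klf13 at chr7:63886351-63938915, S1pr1 at chr3:115710433-115715072, S1pr4 at chr10:81497747-81500132 and Ccr7 at chr11:99144196-99155077. Klf7 overlaps an opposite-strand transcript, Gm26649, which held 2 UMIs in lymph node and 3 in spleen. RefSeq promoter sequences on GRCm38.p6, 250 bases before the transcription start, were matched for 6 of the 8 genes (Klf2, Klf3, Klf6, Klf7, Klf13 and S1pr4). The 3 printed here belong to the factor that leads the results and to the members whose levels departed from it. They are given 5′ to 3′ on the gene's strand and stop where the GENCODE gene begins. Capitals mark a MEF2 site in Klf2, an E box (CACGTG) in Klf6 and, in S1pr4, the reverse strand of a CACCC box (GGGTG).
Klf2 (chr8:72318812-72319032, plus strand): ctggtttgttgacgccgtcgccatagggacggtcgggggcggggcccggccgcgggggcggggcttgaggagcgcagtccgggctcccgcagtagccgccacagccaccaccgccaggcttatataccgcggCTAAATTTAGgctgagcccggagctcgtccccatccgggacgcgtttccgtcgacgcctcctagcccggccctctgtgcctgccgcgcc
Klf6 (chr13:5861239-5861481, plus strand): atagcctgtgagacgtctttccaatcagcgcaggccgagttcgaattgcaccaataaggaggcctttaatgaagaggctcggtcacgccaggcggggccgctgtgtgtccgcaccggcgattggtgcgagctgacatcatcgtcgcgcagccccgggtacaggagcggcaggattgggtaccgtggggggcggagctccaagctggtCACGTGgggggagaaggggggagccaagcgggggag
S1pr4 (chr10:81500138-81500387, minus strand): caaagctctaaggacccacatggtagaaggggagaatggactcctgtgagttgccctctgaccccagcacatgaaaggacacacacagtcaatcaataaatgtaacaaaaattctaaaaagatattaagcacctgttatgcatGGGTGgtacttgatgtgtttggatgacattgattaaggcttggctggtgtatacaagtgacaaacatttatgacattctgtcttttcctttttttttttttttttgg

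These motifs were searched on both strands after the sequences had been seen, and a match describes letters only. A MEF2 match stood in Klf2 alone among the 6 promoters, 118 bases before its start, and 2.92% of 32851 RefSeq mouse promoters of this length held one. The E box in Klf6, 43 bases before the start, was of a kind that 6.02% of promoters held. A CACCC box occurred in 52.0% of promoters, once each in Klf2 (19 bases before the start, past the printed stretch), Klf13 and S1pr4, 5 times in Klf3 and 3 times in Klf7, and not in Klf6. The forkhead letters GTAAACA, found in 3.17% of promoters, were in none of the 6 windows. The S1pr4 window was also poor in G and C, at 38.8%, against 71.2% in Klf2, 64.8% in Klf6 and a median of 52.4% over all promoters.

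The lymph node library held 4820 cells after filtering (median 2031 UMIs, unique transcript tags) and the spleen library 6543 (median 1935). Levels are given in CPM, the UMIs of a gene in the summed cells scaled to a common total. All intervals are 95% intervals of counting error, which say nothing of differences between animals, and PCR copies are already collapsed by UMI. The intervals of CPM and of ratios treat the summed UMIs as independent and leave out variation between cells. Groups called above, below or apart are so by these counting intervals only, which are likely too narrow where cells are few. The T cell marker genes summed to 4737 CPM in lymph node and 4829 in spleen with all 6 detected, and the 7 Treg markers, also all detected, to 2427 and 2516. B cell markers were also present, at 850.3 and 761 CPM, and haemoglobin genes were at 326 CPM in lymph node against 0.961 in spleen. Of the barcodes, 53 occurred in both libraries (45 among the cells kept). Cells were gated by raw UMIs. A cell with an ICRE UMI and none of Foxp3 is called ICRE-only (354 lymph node and 505 spleen cells), and the converse Foxp3-only (982 and 1195). ICRE is a sequence the submitters added to the gene table. The sources used here do not give its letters, and reading it as a mark of the Foxp3 Cre allele is an assumption. Free RNA can place a UMI in a cell that does not make it. Among B cells without Cd3 UMIs, 43 in lymph node and 48 in spleen at a median of 2229 and 1984.5 UMIs, 0 held an ICRE or Cxcr3 UMI (upper bounds 8.22% and 7.40%), Foxp3 was found in 0 and 1, and Klrg1 in 1 and 0. ICRE was found in 7.86% and 8.39% of all cells, Foxp3 in 20.9% and 18.9%. These B cells held Klf2 at 1572 and 1376 CPM.

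Klf2 was at nearly the same level in the 2 tissues, whereas Ccr7 was higher in spleen and Klf3 was higher in lymph node. Klf2 stood at 977 CPM (counting interval 960.4 to 994) in lymph node and at 1028 CPM (counting interval 1012 to 1043) in spleen, a 1.05-fold (interval 1.03 to 1.08) difference. Ccr7 was at 187 CPM (counting interval 179 to 194) in lymph node and 303 CPM (counting interval 294 to 311) in spleen, 1.62-fold (interval 1.55 to 1.7) higher in spleen. Klf3 was at 173 CPM (counting interval 166 to 181) and 108 CPM (counting interval 103 to 113), 1.6-fold (interval 1.5 to 1.7) lower in spleen. These were the 1 member higher and the 1 member lower past 1.5-fold, where 0.713% of 5048 genes were higher and 0.872% lower. The other factors were nearer to equal. Klf6 was at 146 CPM in lymph node and 123 in spleen, Klf13 at 212 and 187, and Klf7 at 36.4 and 36.7. The 2 sphingosine 1-phosphate receptors were close as well, S1pr1 at 134 and 119 CPM and S1pr4 at 134 and 132. The S1pr4 interval, 1.02-fold (interval 0.953 to 1.08) lower in spleen, includes equality, as does that of Klf7. Over the 8 members the median log2 ratio was -0.095, beside 0.016 over all genes. In ICRE-only cells Ccr7 was 1.49-fold higher in spleen, and in Foxp3-only cells 1.72-fold. In Klrg1-positive cells the values stood in the other order, at 70.8 CPM in lymph node and 41.1 in spleen, but their counting intervals overlap. For Klf3 the spleen level was 2.14-fold lower in ICRE-only and 1.82-fold lower in Foxp3-only cells. Haemoglobin genes, at 326 against 0.961 CPM, moved with the tissue too, and their part was not tested. With 1 library per tissue, tissue and library cannot be told apart.

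**Figure D1:**
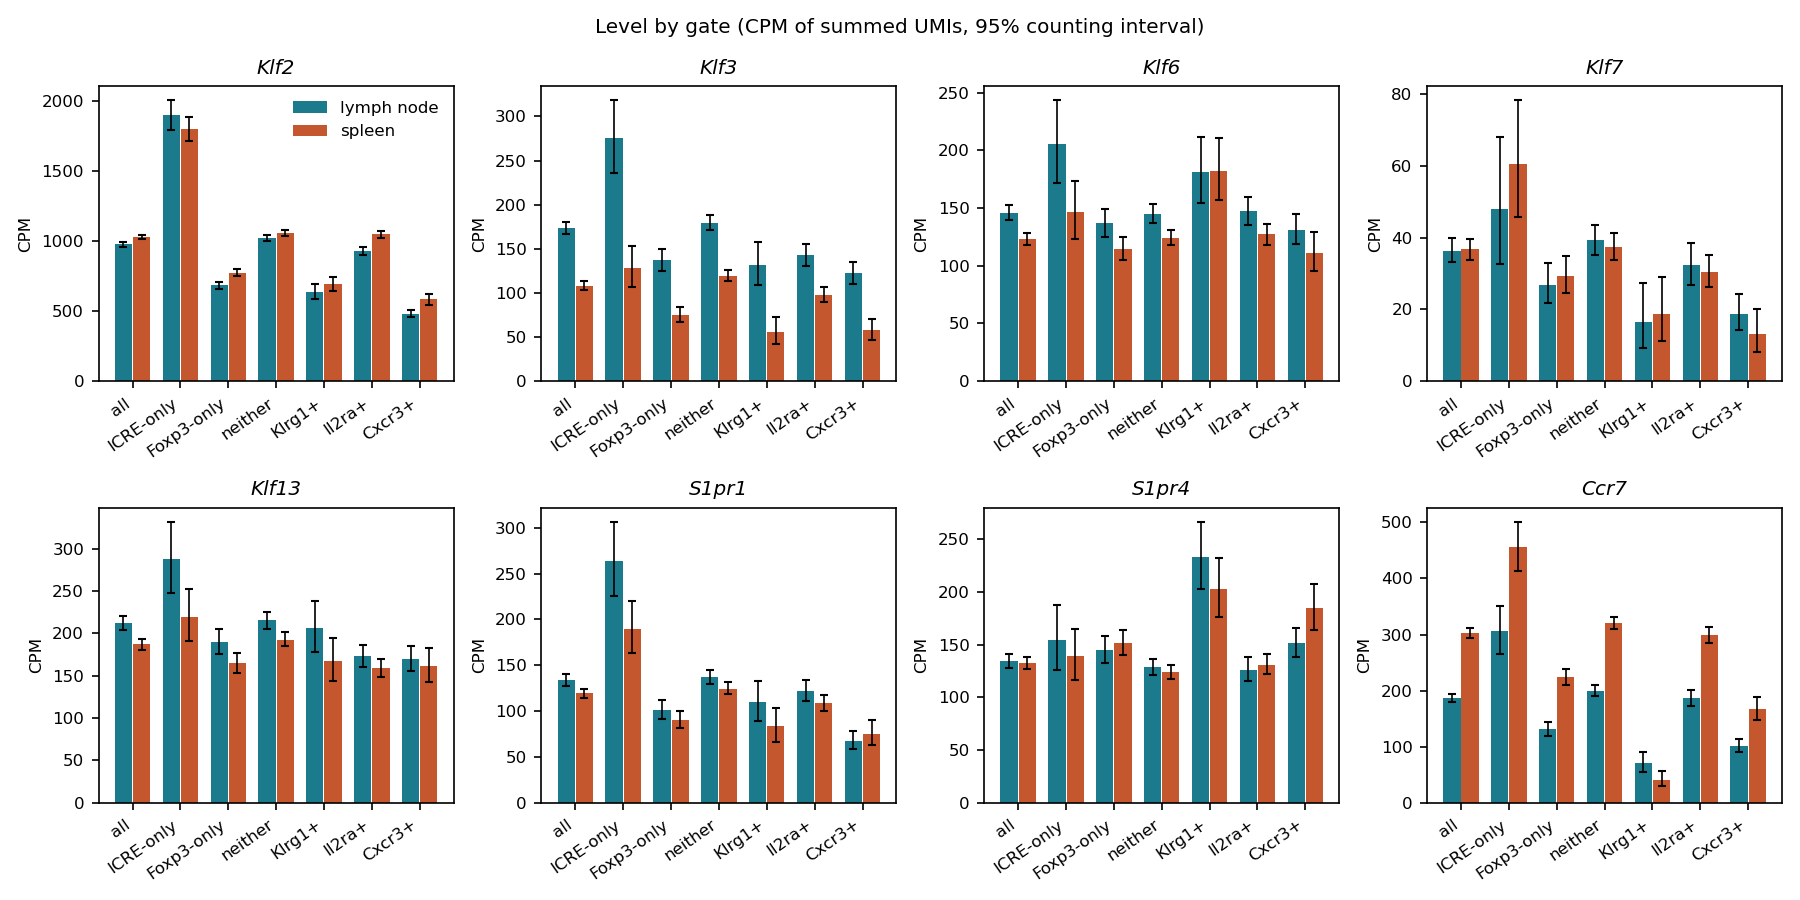
Levels of the 8 genes (CPM of summed UMIs, vertical axes from 0, each with its own scale) in all cells and in 6 gates of the lymph node (blue) and spleen (orange) libraries; bars give the level and whiskers the 95% counting interval. Klf2 ranges from 480.3 CPM in Cxcr3-positive to 1899 in ICRE-only lymph node cells, Ccr7 is lowest in Klrg1-positive cells, and S1pr4 is highest there.

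Of the other genes read with them, the 13 other homing receptors and adhesion molecules (12 in the gene table, 11 with enough UMIs, a mean of at least 20 CPM) held 1 higher and 2 lower in spleen past 1.5-fold. Ptger4, a prostaglandin E2 receptor, was 1.53-fold (interval 1.39 to 1.68) higher in spleen. Itga4, an integrin chain used to enter tissues, was 2.17-fold (interval 1.97 to 2.4) lower there, and Gpr183, the oxysterol receptor that places cells at follicle edges, 1.65-fold (interval 1.5 to 1.83) lower. No gene of the other 4 lists passed 1.5-fold between tissues: 0 of 3 other Klf and Sp factors with enough UMIs, 0 of 9 regulators upstream of Klf2, 0 of 7 of the sphingosine 1-phosphate axis and 0 of 15 of the migration machinery. The 5 list medians lay between -0.10 and 0.14, beside 0.016 over all genes.

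ICRE-only cells held more Klf2, S1pr1 and Ccr7 than Foxp3-only cells in both libraries, while S1pr4 was near equal. This comparison bears on the study's pairing of Myc-deleted and Myc-intact Treg cells only under assumptions. ICRE would have to mark the Cre allele, and Foxp3-only cells would have to use the wild-type allele. Neither was tested, and a cell with a Foxp3 UMI whose ICRE transcript was missed would count as Foxp3-only. Klf2 was at 1899 CPM (counting interval 1794 to 2008) in ICRE-only and 683 CPM (counting interval 656 to 711) in Foxp3-only lymph node cells, 2.78-fold (interval 2.59 to 2.98) higher. The spleen values were 1802 CPM (counting interval 1717 to 1890.0) and 776 CPM (counting interval 749.8 to 802), 2.32-fold (interval 2.19 to 2.46) higher. The counting intervals of these summed Klf2 levels do not overlap in either library, and how many genes share this was not counted. Single cells do overlap, as a Klf2 UMI was found in 86.2% of ICRE-only and 64.5% of Foxp3-only lymph node cells. S1pr1, a target of Klf2, differed in the same direction. S1pr1 was at 264 CPM (counting interval 226 to 307) against 101 CPM (counting interval 90.8 to 112) in lymph node, 2.61-fold (interval 2.17 to 3.15) higher. In spleen it was at 190.0 CPM (counting interval 163 to 219.9) against 90.4 CPM (counting interval 81.8 to 99.8), 2.1-fold (interval 1.75 to 2.51) higher. Ccr7 was 2.34-fold (interval 1.97 to 2.77) higher in lymph node, at 306 against 131 CPM. Its spleen levels were 456 and 224 CPM, 2.04-fold (interval 1.81 to 2.28) higher. In contrast S1pr4 was at 155 CPM (counting interval 126 to 188) against 145 CPM (counting interval 133 to 158) in lymph node and 139 CPM (counting interval 116 to 165) against 152 CPM (counting interval 140.5 to 164) in spleen, and both intervals of its ratio include equality. Its ratio depended on the setting. Under other choices of cells, depth, scaling and gates it ran from 1.09-fold lower to 1.43-fold higher in lymph node. In spleen it ran from 1.49-fold lower to 1.09-fold higher. All 4 other factors were higher in ICRE-only cells of both libraries. Klf3, the repressor, was 2.01-fold and 1.7-fold higher in lymph node and spleen, Klf7 1.79-fold and 2.06-fold, Klf6 1.5-fold and 1.28-fold, and Klf13 1.52-fold and 1.34-fold. In lymph node 7 of 8 members were higher past 1.5-fold, where 13.6% of 5117 genes were, and 0 were lower (7.45% of genes). In spleen 5 of 8 were higher (11.9% of 5116 genes) and 0 lower (7.53%). Neither the counts nor the shares of all genes are weighted for depth per cell. The members' median log2 ratio was 0.92 in lymph node and 0.90 in spleen, beside 0.11 over all genes in each.

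**Figure D2:**
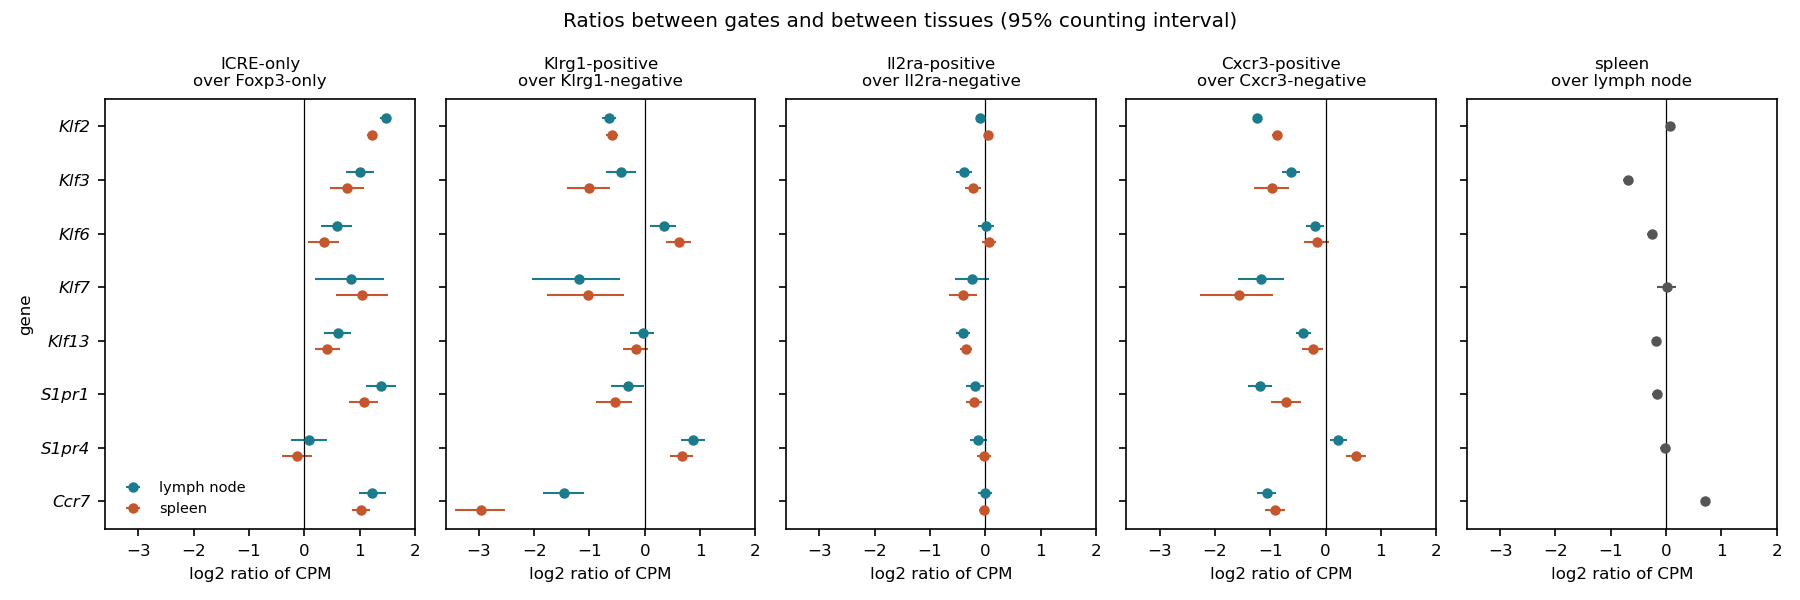
Log2 ratio of CPM for each gene (rows) in the 4 gate comparisons and between tissues, lymph node in blue, spleen in orange and the tissue ratio in grey; points are ratios, bars 95% counting intervals and the vertical line equality. Klf2, S1pr1 and Ccr7 lie right of the line for ICRE and left of it for Cxcr3, and S1pr4 lies right of it for Klrg1 and Cxcr3.

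Depth per cell moved with this gate. The median was 2859.5 UMIs in Foxp3-only against 1605.5 in ICRE-only lymph node cells, and 2941 against 1635 in spleen. Cells with neither UMI had medians of 1898 in lymph node and 1823 in spleen. Any UMI, of Foxp3 or of ICRE, is caught more often in a deep cell, and what sets these medians apart was not tested. Over all cells Klf2 stood lower the more UMIs a cell had. In cells with under 1500, 1500 to under 2500, 2500 to under 4000 and at least 4000 UMIs, Klf2 was at 1962, 1366, 789 and 494 CPM in lymph node and 1918, 1352, 843 and 498 in spleen. S1pr1 followed the same order, at 267, 192, 101 and 69.4 CPM in lymph node and 207, 146, 105 and 68.2 in spleen. Ccr7 varied less, at 255, 234, 163 and 144 in lymph node and 328, 349.9, 287 and 260.3 in spleen. When Foxp3-only cells were weighted to the UMIs per cell of ICRE-only cells, the differences of Klf2 and S1pr1 were smaller and that of Ccr7 was about as large. Klf2 was then 1.79-fold higher in lymph node and 1.44-fold in spleen. S1pr1 was 1.48-fold and 1.42-fold higher, and Ccr7 2.28-fold and 2.31-fold. Of the members, only Klf2 and Ccr7 in lymph node and only Ccr7 in spleen stayed past 1.5-fold with this weighting. The share of all genes that stay past it with the weighting was not counted, so these members have no background beside them. The other factors had smaller differences left. Klf3 came to 1.28-fold in lymph node and 1.07-fold in spleen, Klf7 to 1.19 and 0.983, Klf13 to 1.18 and 1.08, and Klf6 to 1.19 and 0.905, which for Klf6 and Klf7 in spleen is on the other side of equality.

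Within each of the 4 depth classes Klf2 was still higher in ICRE-only cells, by 1.68, 1.97, 2.37 and 1.9-fold in lymph node and by 1.35, 1.48, 1.9 and 1.62-fold in spleen, each with an interval above equality. Ccr7 was higher in all 8 classes too, between 1.65-fold (interval 1.04 to 2.51) in the deepest spleen cells and 2.86-fold (interval 1.21 to 8.23) in the shallowest lymph node cells. S1pr1 differed in the 2 middle classes only. It was 2.1-fold and 2.76-fold higher there in lymph node and 1.44-fold and 2.7-fold in spleen, while the shallowest and deepest classes had intervals that include equality in both libraries. The deepest class held 9 lymph node and 11 spleen ICRE-only cells. Whether depth per cell reflects capture or the RNA content of the cells was not tested.

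**Figure D3:**
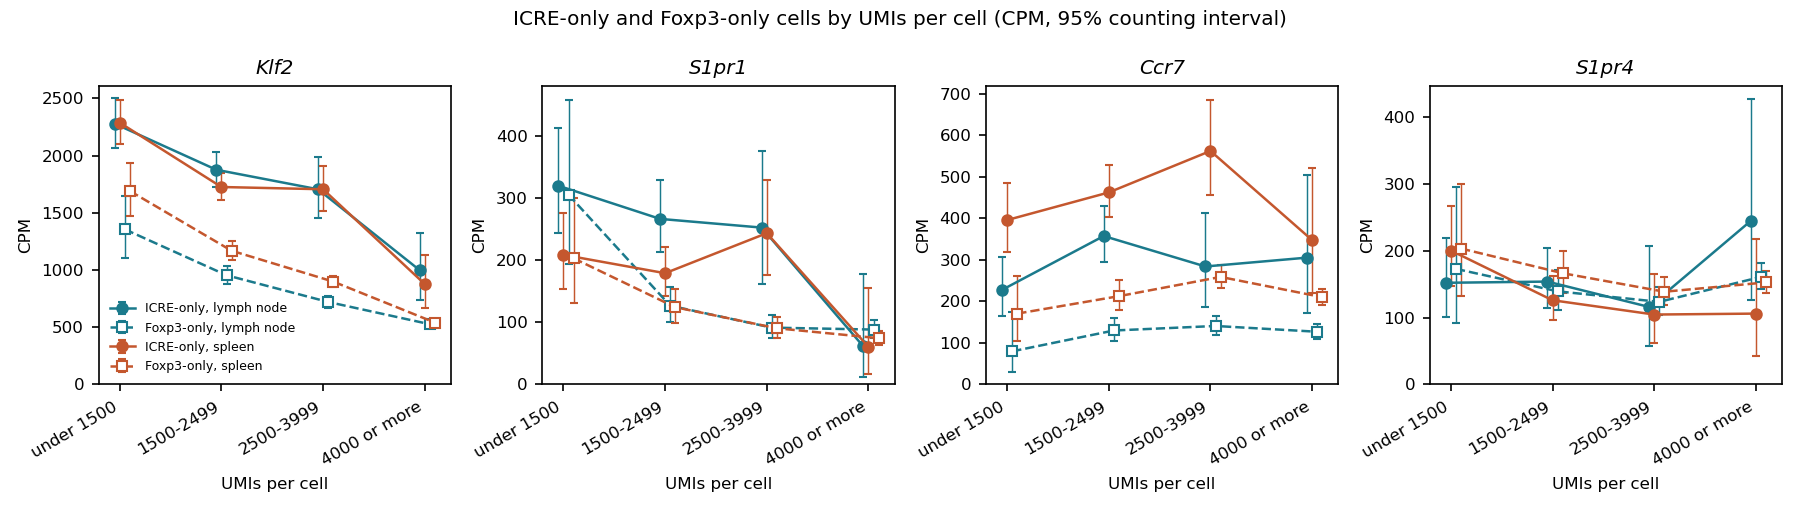
Klf2, S1pr1, Ccr7 and S1pr4 in ICRE-only (filled circles, solid lines) and Foxp3-only cells (open squares, dashed lines) of lymph node (blue) and spleen (orange), as CPM (vertical axes from 0) in 4 classes of UMIs per cell (horizontal axis); whiskers are 95% counting intervals. The solid Klf2 and Ccr7 lines stay above the dashed ones of the same library in every class, and the S1pr4 ratio has an interval that includes equality in every class.

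Cell makeup also differed between the gates. The 7 Treg markers, Foxp3 included, summed to 2146 CPM in ICRE-only and 3218 in Foxp3-only lymph node cells, and to 2426 and 3359 in spleen. Part of this is set by the gate, as Foxp3 itself was at 0 CPM in ICRE-only and 403 in Foxp3-only lymph node cells. T cell markers were at 5195 and 4601 CPM in lymph node and 5370.4 and 4510.1 in spleen. B cell markers were higher in ICRE-only cells of lymph node (805 against 405 CPM) and lower in those of spleen (296 against 586). Without cells holding a UMI of B, CD8 T, NK or myeloid genes, Klf2 was 2.71-fold higher in lymph node and 2.26-fold in spleen. Among cells with an Ikzf2 UMI, Ikzf2 being Helios, a factor of most Treg cells, Klf2 was 2.99-fold and 2.58-fold higher. Cells with neither gate gene, 3459 and 4799 in number, stood between, with Klf2 at 1019 and 1058 CPM. The few cells with both, 25 in lymph node and 44 in spleen, had Klf2 at 1718 (counting interval 1447 to 2025) and 1332 (counting interval 1154 to 1528) CPM. So the order in lymph node was ICRE-only, both, neither and Foxp3-only, of which the first and second do not differ beyond their intervals. The spleen had the same order with no overlap of the intervals. In the same order S1pr1 was at 264, 194, 137 and 101 CPM in lymph node and 190.0, 119, 125 and 90.4 for spleen. The cells with both rest on 16 and 18 S1pr1 UMIs and overlap every other group, while the other 3 groups are apart from each other in each library. Ccr7 stood at 306, 194, 199.9 and 131 CPM in lymph node, where the cells with both, on 16 UMIs, again overlap every other group. The spleen levels were 456, 363, 319.8 and 224, where the cells with both overlap their neighbours. For S1pr4 the 4 lymph node levels overlap, and in spleen the cells with neither (124 CPM) lay below Foxp3-only cells (152).

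Of 13 regulators upstream of Klf2, 4 of 9 with enough UMIs were higher past 1.5-fold in ICRE-only lymph node cells and 0 lower, and 5 of 8 were higher and 1 lower in spleen, beside the 13.6% and 11.9% of all genes that were higher. Pik3ip1, an inhibitor of PI3K, was 2.43-fold (interval 2.01 to 2.92) higher in lymph node and 1.9-fold (interval 1.6 to 2.25) in spleen. The regulatory subunit Pik3r1 was 1.97-fold and 1.91-fold higher, the catalytic subunit Pik3cd 1.57-fold and 1.81-fold, and Mef2a, a MEF2 factor, 2.45-fold and 1.84-fold. Of the other homing receptors, 2 of 11 were higher past the threshold in each library, a share near that of all genes. Rasgrp2, which activates the integrin switch Rap1, was 1.74-fold and 1.98-fold higher. It was among 1 and 2 of 15 migration genes past the threshold, beside 13.6% and 11.9% of all genes. Other Klf and Sp factors gave 2 of 4 in lymph node and 1 of 3 in spleen, and the rest of the sphingosine 1-phosphate axis 1 of 7 in each, with 0 lower in the lists other than the upstream regulators. The lists' median log2 ratios lay between 0.045 and 0.73, beside 0.11 over all genes, and list values are not weighted for depth in this or the other gates.

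Klrg1-positive cells, effector-type cells by this surface receptor, had much less Ccr7 and more S1pr4 than the rest. Ccr7 was at 70.8 CPM (counting interval 54.5 to 90.4) in 223 Klrg1-positive lymph node cells against 195 CPM (counting interval 187 to 203) in the others, 2.76-fold (interval 2.15 to 3.59) lower. In spleen it was at 41.1 CPM (counting interval 29.6 to 55.6) in 229 cells against 319.7 CPM (counting interval 311 to 329), 7.77-fold (interval 5.74 to 10.8) lower. The spleen level in Klrg1-positive cells was the lower of the 2, with counting intervals that overlap, although over all cells Ccr7 was higher in spleen. S1pr4 was at 233 CPM (counting interval 203 to 267) against 127 CPM (counting interval 121 to 134) in lymph node, 1.84-fold (interval 1.58 to 2.12) higher. In spleen it was at 203 CPM (counting interval 176 to 232) against 128 CPM (counting interval 122 to 133), 1.59-fold (interval 1.37 to 1.83) higher. These 2 receptors thus moved in opposite directions with Klrg1 in both libraries. Klrg1-positive cells were deeper, at a median of 3209 against 1991 UMIs for lymph node and 3384 against 1907 in spleen. With the other cells weighted to that depth, Ccr7 was 2.35-fold and 7.09-fold lower in lymph node and spleen, and S1pr4 2.05-fold and 1.87-fold higher.

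For Klf2 and S1pr1 the same weighting left smaller differences, in part with the other sign. Klf2 was 1.57-fold (interval 1.44 to 1.71) lower in Klrg1-positive lymph node cells and 1.51-fold (interval 1.4 to 1.63) lower in spleen ones, at 639 against 1002 and 694 against 1049.6 CPM. Weighted for depth it was 1.06-fold lower in lymph node and 1.12-fold higher in spleen. S1pr1 was 1.24-fold and 1.46-fold lower, and 1.21-fold and 1.04-fold higher when weighted. Klf6 was the 1 factor above the rest in Klrg1-positive cells, 1.26-fold (interval 1.07 to 1.48) in lymph node and 1.53-fold (interval 1.31 to 1.78) in spleen, and 1.71-fold and 2.22-fold with the weighting. Klf7 was 2.28-fold and 2.04-fold lower, from 15 and 19 UMIs in the positive cells, and 1.63-fold and 1.27-fold lower with the weighting. Klf3 was 1.34-fold and 2.0-fold lower, of which the lymph node difference went to equality under the weighting (1.0-fold) and the spleen one to 1.21-fold lower. Klf13 was at 207 against 213 CPM for lymph node and 167 against 188 in spleen, with intervals of the ratio that include equality. Without the weighting, 1 member was higher past 1.5-fold in lymph node (12.2% of genes were) and 3 were lower (5.07% of genes). In spleen 2 were higher (18.1%) and 4 lower (7%). The median log2 ratio was -0.37 and -0.57, beside 0.11 and 0.14 over all genes.

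Among the other homing receptors, 2 of 11 were higher in Klrg1-positive cells of each library, beside 12.2% and 18.1% of all genes, a share near the background. Lower were 1 and 2, beside 5.07% and 7%. Itgb7, a chain of the gut-homing integrin, was 2.39-fold (interval 2.21 to 2.59) higher in lymph node and 2.28-fold (interval 2.12 to 2.45) in spleen. Ptger4 was 2.22-fold and 2.37-fold higher. Myo1f, a motor protein of migrating leukocytes, was 5.71-fold (interval 4.29 to 7.54) higher in lymph node and 8.13-fold (interval 6.25 to 10.5) in spleen, the 1 migration gene of 16 past 1.5-fold upward in each. Gna13, a G protein subunit that couples receptors of this family, was 1.55-fold and 1.66-fold higher, among 1 and 2 of 7 genes of the sphingosine 1-phosphate axis. Pik3ip1 was 2.23-fold and 2.92-fold lower, among 1 of 8 and 2 of 7 upstream regulators lower and 0 and 1 higher. The lists' medians lay between -0.45 and 0.85, the highest from 2 genes only. NK or innate lymphoid markers summed to 201 CPM in Klrg1-positive and 155 in Klrg1-negative lymph node cells with 6 of 6 detected, and to 97.9 and 151 in spleen, where Ncr1 and Klrb1c were at 0 in the positive cells. Treg markers were higher in Klrg1-positive cells, 3368 against 2356 and 3828 against 2430.0 CPM. Haemoglobin genes in lymph node were at 133 against 340.4 CPM. The part of these cell types in the results was not tested.

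Cxcr3-positive cells, which carry the receptor for interferon-induced chemokines, had less Klf2, S1pr1 and Ccr7 and somewhat more S1pr4 before depth was weighted. Klf2 was at 480.3 CPM (counting interval 456 to 506) in 690 Cxcr3-positive lymph node cells against 1129 CPM (counting interval 1108 to 1149.9) in the rest, 2.35-fold (interval 2.23 to 2.48) lower. In spleen it was at 584 CPM (counting interval 547 to 623) in 347 cells against 1075 CPM (counting interval 1058 to 1091), 1.84-fold (interval 1.72 to 1.97) lower. These were the lowest Klf2 levels of the gates plotted. S1pr1 was at 67.8 against 154 CPM in lymph node, 2.27-fold (interval 1.96 to 2.64) lower, and at 75.4 against 124 in spleen, 1.64-fold (interval 1.36 to 1.99) lower. Ccr7 was at 102 against 212 CPM and 168 against 317, 2.09-fold (interval 1.86 to 2.36) and 1.89-fold (interval 1.67 to 2.14) lower. S1pr4 was 1.17-fold (interval 1.05 to 1.3) higher in lymph node and 1.46-fold (interval 1.29 to 1.65) in spleen. Klf7 was 2.24-fold and 2.97-fold lower and Klf3 1.55-fold and 1.96-fold lower, whereas Klf6 and Klf13 were within 1.5-fold. In each library 5 of 8 members were lower past 1.5-fold, where 3.66% of lymph node and 3.91% of spleen genes were, and 0 were higher, beside 4.91% and 8.01% of genes. These counts and shares are not weighted for depth. The members' median was -0.85 and -0.80 in log2, beside 0.016 and 0.076 over all genes.

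Depth moved with this gate too, with medians of 3326 against 1882 UMIs for lymph node and 3621 against 1887 in spleen. With the rest weighted to that depth Klf2 was 1.41-fold lower in lymph node and 1.08-fold in spleen. S1pr1 was 1.35-fold and 1.05-fold lower, Klf3 1.02-fold and 1.14-fold, and Klf7 1.39-fold and 1.89-fold. Ccr7 held a larger part of its difference, 1.76-fold and 1.7-fold lower, and S1pr4 was 1.37-fold and 1.66-fold higher. With this weighting only Ccr7 in both libraries and Klf7 in spleen were lower past 1.5-fold, and only S1pr4 in spleen was higher past it. The share of all genes past 1.5-fold under the weighting was not counted here either. Klf6 turned to 1.33-fold and 1.27-fold higher under the weighting, from 1.15-fold and 1.12-fold lower, of which the spleen interval includes equality. Of the listed genes, Pik3ip1 was 2.12-fold and 1.65-fold lower, and the PI3K effector kinase Akt1 1.62-fold and 1.57-fold higher, the 1 of 8 upstream regulators higher in each library. Lower among these regulators were 1 in lymph node and 2 in spleen. Myo1f was 3.85-fold and 4.95-fold higher, again the 1 of 16 migration genes. The other homing receptors had 1 of 11 lower in lymph node and 3 of 11 in spleen, with 0 higher. Of all genes, 3.66% and 3.91% were lower and 4.91% and 8.01% higher. The lists' medians lay between -0.33 and 0.075. NK or innate lymphoid markers were higher in Cxcr3-positive cells, 262 against 127 CPM for lymph node and 230.1 against 139 in spleen, all 6 detected. Other lists moved with this gate as well. In lymph node the B cell markers were at 470.2 against 966 CPM and the haemoglobin genes at 117 against 389.8, and in spleen the myeloid markers were at 324 against 175. Their part in the results was not tested.

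Within Foxp3-only cells the 2 gates could be set side by side. Cells were divided into those with neither Klrg1 nor Cxcr3, Klrg1 alone, Cxcr3 alone and both, which gave 659, 68, 222 and 33 lymph node and 941, 94, 134 and 26 spleen cells. Ccr7 was at 161, 78.7, 105 and 21.7 CPM in that order in lymph node and 276, 32.4, 149.8 and 63.4 in spleen. In spleen the level was lowest where Klrg1 was present, and cells with Cxcr3 alone stood between these and the cells with neither. In lymph node the same order held, but Klrg1 alone and Cxcr3 alone overlap, and the cells with both rest on 4 UMIs. S1pr4 had the opposite order, at 108, 282, 154 and 298 CPM in lymph node and 129, 231, 181 and 248 in spleen, with the Klrg1 groups above the cells with neither beyond their intervals in both libraries. Klf2 was lower with Cxcr3 in lymph node, at 781, 790.2, 495 and 488 CPM, where the levels with and without Klrg1 overlapped. In spleen it was at 831, 638, 616 and 737 CPM and the groups with a single marker lay below the cells with neither, while the cells with both overlap all others. S1pr1 was at 113, 139, 65.1 and 109 CPM in lymph node, lower with Cxcr3 alone than with neither, and at 90.5, 92.4, 91.4 and 80.7 in spleen, where all 4 intervals overlapped. Between all Klrg1-positive and all Klrg1-negative Foxp3-only cells of lymph node the intervals of Klf2 and S1pr1 include equality (670.4 against 685 CPM for Klf2 and 127 against 97.1 for S1pr1) while Ccr7 was 2.54-fold lower. In spleen Klf2 was 1.19-fold and Ccr7 6.15-fold lower. Median depth was 2596, 3134, 3446 and 4678 UMIs in lymph node and 2725, 3766, 4180 and 4794 in spleen. ICRE-only cells with these markers were too few to divide, 3 and 1 with Klrg1 alone and 13 and 4 with Cxcr3 alone.

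**Figure D4:**
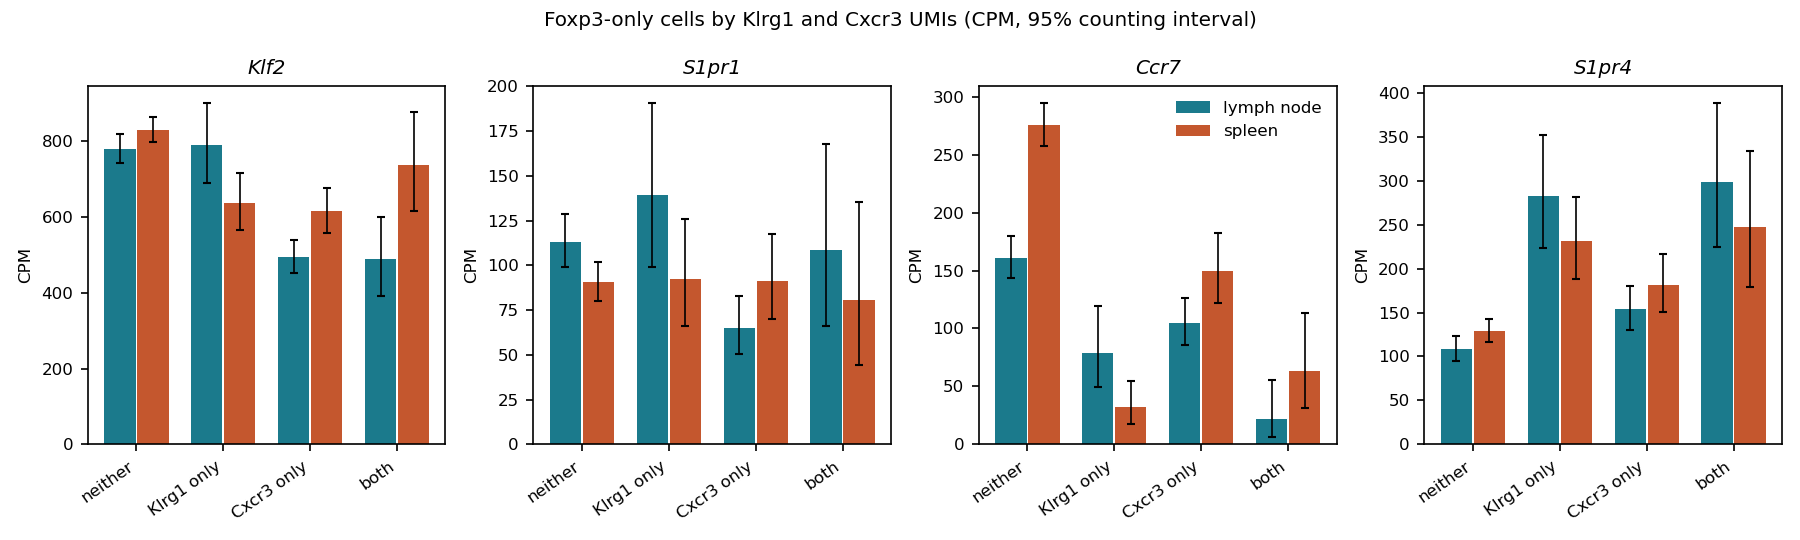
Klf2, S1pr1, Ccr7 and S1pr4 in Foxp3-only cells with neither Klrg1 nor Cxcr3, Klrg1 only, Cxcr3 only or both, in CPM (vertical axes from 0) for lymph node (blue) and spleen (orange); whiskers are 95% counting intervals. Ccr7 is lowest and S1pr4 highest in the groups with Klrg1, and Klf2 is lower with Cxcr3 in lymph node.

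Il2ra, the CD25 gene, separated the members little. None of the 8 passed 1.5-fold in either direction, where 0.675% of lymph node and 0.476% of spleen genes were higher and 0.278% and 0.297% lower. Klf2 was at 997 (counting interval 977 to 1017), 959 (counting interval 921 to 998), 871 (counting interval 810.4 to 934) and 866 (counting interval 773 to 967) CPM in lymph node cells with 0, 1, 2 and at least 3 Il2ra UMIs. In spleen it was at 1017, 1065, 1085 and 936 CPM. In lymph node the cells with 2 or more lay below those with 0. In spleen the cells with at least 3 lay below those with 1 or 2 and overlapped those with 0. Within ICRE-only cells Klf2 was higher with Il2ra, 1.18-fold in lymph node and 1.13-fold in spleen, whereas within lymph node Foxp3-only cells it was 1.2-fold lower. Depth weighting put Klf2 at 1.05-fold and 1.24-fold higher in Il2ra-positive cells. Klf13 stood at 228, 181, 159.5 and 146 CPM in lymph node and 202, 161, 159.8 and 146 in spleen. In each library the cells with 0 Il2ra UMIs lay above the other 3 groups, and these 3 overlap. Klf13 was 1.32-fold (interval 1.21 to 1.44) lower in Il2ra-positive than in Il2ra-negative lymph node cells and 1.28-fold (interval 1.18 to 1.38) lower in spleen, and 1.24-fold and 1.19-fold with the depth weighting. Within ICRE-only cells alone Klf13 was 1.94-fold lower with Il2ra in lymph node and 1.67-fold in spleen, at 176 against 341 and 156 against 260.0 CPM. Within Foxp3-only cells Klf13 was lower with Il2ra as well, 1.52-fold in lymph node and 1.28-fold in spleen. Klf3 was 1.3-fold and 1.16-fold lower in Il2ra-positive cells, Klf7 1.18-fold and 1.32-fold, and S1pr1 1.13-fold and 1.15-fold. The lymph node interval of Klf7 includes equality. With the depth weighting Klf3 and S1pr1 of spleen turned to log2 0.033 and 0.0055. Ccr7 was at 186 against 187 CPM for lymph node and 299 against 305 in spleen, and S1pr4 and Klf6 too had intervals that include equality in both libraries. No gene of the 5 other lists passed 1.5-fold here. All cells had been sorted for CD25 protein, so the cells without an Il2ra UMI need not lack CD25. Marker lists moved with this gate. Treg markers, Il2ra included, were at 2973 against 2204 CPM for lymph node and 3158 against 2165 for spleen. Part of this is set by the gate, as Il2ra itself was at 463 CPM in Il2ra-positive and 0 in Il2ra-negative lymph node cells. B cell markers were at 680.5 against 919 CPM for lymph node and 420.1 against 947 for spleen. Haemoglobin genes of lymph node were at 121 against 409 CPM. The part of these was not tested.

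Cell by cell, Klf2 and S1pr1 were the pair with the largest difference. Each cell was thinned to 1200 UMIs for this, which left 4568 lymph node and 6018 spleen cells. The cells' UMIs before thinning, with which both genes move, were not weighted here. Cells with a Klf2 UMI held S1pr1 at 228 CPM against 95.2 in cells without one in lymph node, and at 182 against 81.8 in spleen, log2 ratios of 1.26 and 1.15. For the other members the log2 ratio with Klf2 lay between 0.41 (Klf13) and 0.78 (Klf6) in lymph node and between 0.16 (Ccr7) and 0.89 (Klf3) in spleen. S1pr4 was also higher in cells with Klf2, 0.65 and 0.66, and in cells with S1pr1, 0.45 and 0.50. S1pr4 with Ccr7 went the other way in spleen, where cells with a Ccr7 UMI held S1pr4 at 116 against 142 CPM (log2 -0.30, interval -0.51 to -0.086). In lymph node the values were 129 and 145 (log2 -0.16, interval -0.44 to 0.11), which includes equality.

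Likeness of pattern was described over the 8 log2 ratios, 4 gate comparisons in 2 libraries, among 2458 genes with at least 50 CPM. The 8 points share libraries, cells and depth differences, so r is a description with no test. S1pr1 ranked 9 of the 2458 in likeness to Klf2 (r = 0.99), and Klf2 ranked 8 in likeness to S1pr1. Among the genes most like Klf2 were 1810058I24Rik, Upf2, Cytip, Txnip and Pnrc1 (r = 0.99 for each), and those most like S1pr1 were Tsc22d3 (r = 0.998), Snrnp48 and Tprgl (r = 0.99 for both). Ccr7 was nearest to Cd96, Ndrg3 and Fam189b (r = 0.99 for each) and further from Klf2 (r = 0.80). Klf7 had r = 0.96 and Klf3 r = 0.94 with Klf2, the former left out of the ranking by its low level, Klf13 0.84 and Klf6 0.57. Against Klf2, S1pr4 alone of the members was negative, at -0.59, and it stood at -0.78 with Ccr7.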

How the data were processed

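The 10x 3' V2 kit was used for 1 lymph node and 1 spleen library of sorted cells. The authors made the deposited counts, which are UMIs for each gene in each barcode, with Cell Ranger 3.0.1 against mm10, per the submitters' processing notes. Besides Ensembl genes the gene table has 3 added features (EYFP, CRE, ICRE). EYFP had 0 and 2 UMIs in lymph node and spleen, CRE 0 in both and ICRE 442 and 651. Lymph node totals were 13324306 UMIs over 5079 barcodes, and spleen totals 16868549 over 6840.

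Cells needed at least 500 genes and no more than 10% mitochondrial UMIs, and 259 and 297 barcodes did not pass. Doublets were not removed, and an alternative leaves out the 6% of cells with the most UMIs. The members, gates and gene lists were chosen with earlier results of these data known. Named list genes had a mean of at least 20 CPM and a ratio past 1.5-fold in the same direction in both libraries (between tissues, past 1.5-fold), at most 4 per list. Genes named for likeness were the 6 with the highest r to Klf2 and the 3 highest to S1pr1 and to Ccr7. Some genes that these rules name are not reported here. Intervals at 95% were exact Poisson for CPM, exact binomial (Clopper-Pearson) for shares and exact conditional for ratios (scipy 1.17.1, Python 3.11.15, numpy 2.4.6, pandas 2.3.3, matplotlib 3.10.9). There being 1 library per tissue, nothing was tested. A ratio with a count of 0 would use a floor of 3 counts. Depth weighting matched the second gate to the first in 10 bins of UMIs per cell, and it has no interval. Motifs were chosen with the sequences seen. The scripts were tested on simulated data. Alternatives changed cell filters, the weight of cells, scaling, thinning, gates and the cells entered.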

Additional observations from a re-analysis of the deposited data

Results flagged for a closer look

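Both results here have opposite directions in the 2 tissues, and the difference between the tissues was not tested. S1pr4 in ICRE-only over Foxp3-only cells had a log2 ratio of 0.089 in lymph node (interval -0.24 to 0.40) and of -0.13 in spleen (interval -0.41 to 0.15), and both intervals include equality. Klf2 in Il2ra-positive over Il2ra-negative cells had a log2 ratio of -0.10 in lymph node (interval -0.16 to -0.045) and of 0.044 in spleen (interval -0.00092 to 0.090), of which the second includes equality.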

How the results depend on the processing

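Klf2 log2 ratios (first gate over second, or spleen over lymph node) moved or turned as follows, where the analysis gave between tissues 0.073, ICRE lymph node 1.47, ICRE spleen 1.22, Klrg1 lymph node -0.65, Klrg1 spleen -0.60, Il2ra lymph node -0.10, Il2ra spleen 0.044, Cxcr3 lymph node -1.23, Cxcr3 spleen -0.88. With at least 1000 genes and at most 5% mitochondrial UMIs per cell they were between tissues 0.13, ICRE lymph node 1.31, Klrg1 lymph node -0.13, Klrg1 spleen -0.011, Il2ra lymph node 0.018, Il2ra spleen 0.30, Cxcr3 lymph node -0.67, Cxcr3 spleen -0.37. With equal weight per cell they were between tissues 0.037, ICRE lymph node 1.33, ICRE spleen 1.02, Klrg1 lymph node -0.81, Klrg1 spleen -0.86, Il2ra lymph node -0.044, Cxcr3 lymph node -1.36, Cxcr3 spleen -1.02. Thinned to 1200 UMIs they were between tissues 0.021, ICRE lymph node 1.27, ICRE spleen 1.05, Klrg1 spleen -0.86, Il2ra spleen 0.14, Cxcr3 spleen -1.04. With the second gate matched to the first in depth they were ICRE lymph node 0.84, ICRE spleen 0.53, Klrg1 lymph node -0.086, Klrg1 spleen 0.16, Il2ra lymph node 0.066, Il2ra spleen 0.31, Cxcr3 lymph node -0.49, Cxcr3 spleen -0.11. Among cells with a Foxp3 or ICRE UMI they were between tissues 0.12, Klrg1 lymph node -0.46, Il2ra spleen -0.046, Cxcr3 lymph node -0.95, Cxcr3 spleen -0.67; for the ICRE gates this choice leaves the same cells. Without the highest 6% of cells by UMIs they were ICRE lymph node 1.32, ICRE spleen 1.0, Il2ra lymph node -0.027, Il2ra spleen 0.12. Without ribosomal and mitochondrial genes in the total they were ICRE lymph node 1.36, ICRE spleen 1.11, Klrg1 lymph node -0.80, Klrg1 spleen -0.78. With gates of at least 2 UMIs they were ICRE lymph node 1.91, ICRE spleen 1.73, Il2ra lymph node -0.20. Chosen after seeing the data, 5 further alternatives gave between tissues 0.18, Klrg1 lymph node -0.032, Klrg1 spleen -0.25, Il2ra lymph node -0.26, Il2ra spleen -0.051, Cxcr3 lymph node -0.66, Cxcr3 spleen -0.33 in Foxp3-only cells, between tissues -0.076 in ICRE-only cells, ICRE lymph node 1.33, ICRE spleen 1.11 without Klrg1 or Cxcr3, and ICRE lymph node 1.58, ICRE spleen 1.37 with Ikzf2. The Klf2 tissue, Il2ra and Klrg1 spleen results thus turned under 1 or more of these, and the ICRE and Cxcr3 results kept their direction in all that were run.

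Of the other members' values, 550 stayed within their interval, 134 moved and 20 turned. Turned under the depth weighting: Klrg1 lymph node Klf3 0.0055 and S1pr1 0.28, Klrg1 spleen S1pr1 0.061, Cxcr3 lymph node Klf6 0.41 and Klf13 0.0032, Cxcr3 spleen Klf13 0.14, ICRE spleen Klf6 -0.14 and Klf7 -0.025, and Il2ra spleen Klf3 0.033 and S1pr1 0.0055. Under the stricter cell filter: S1pr1 between tissues 0.019, Klrg1 lymph node S1pr1 0.20, Cxcr3 lymph node Klf6 0.092, ICRE spleen Klf6 -0.088, and Il2ra spleen Klf3 0.042 and S1pr1 0.032. In Foxp3-only cells S1pr1 with Klrg1 in lymph node was 0.39 and Klf6 with Cxcr3 0.068. Without the highest 6% Klf6 with Cxcr3 in lymph node was 0.050, and Klf13 with Cxcr3 in thinned spleen cells 0.14. Beyond the construction of each alternative the causes were not tested. With a mean of at least 50 CPM the shares of all genes past 1.5-fold changed as well. Relative to their size they moved most for Klrg1 lower in lymph node (5.07% to 3.15%) and Il2ra higher in spleen (0.476% to 0.279%). ICRE higher went from 13.6% to 10.4% in lymph node and from 11.9% to 9.36% in spleen. Cxcr3 lower went from 3.66% to 2.5% and from 3.91% to 2.87%. Only Klrg1 higher in spleen rose, from 18.1% to 18.5%. No paired analysis was possible because the labels give no replicate numbers and there is 1 library per tissue, and nothing here measures differences between animals.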
